A study of Mus musculus with 30 samples.

Results

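Of the 34724 genomic intervals listed for any of 9 transcription factors in 3T3-L1 cells, 504 were listed for all 9. These 504, called 9-factor intervals here, are the subject of the sections that follow. They were chosen by 1 rule: an interval with identical coordinates on chromosomes 1 to 19 or X had to be present in every list, those of the bZIP proteins cJun, JunB, FOSL2, ATF2 and ATF7, of KLF4 and KLF5, and of the nuclear receptors RXR and VDR. They made up 1.45% of all listed intervals (exact 95% interval 1.33 to 1.58).

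3T3-L1 is an established line of mouse pre-adipocytes, which become fat cells when given the right hormones. The cells had grown past confluence and then received 1 μM dexamethasone, a synthetic glucocorticoid, together with insulin at 1 μg per ml, serum of fetal calves at 10% and 0.5 mM isobutylmethylxanthine, an inhibitor of cyclic AMP breakdown. Harvest followed 4 h later. Chromatin immunoprecipitation with sequencing (ChIP-seq) was done with 1 library per factor, all from cells under this same treatment, so that no untreated group enters any comparison below. The lists give 400 bp intervals by chromosome, start and end, with no score and no read number, so the sequencing depth behind them is unknown.

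Regions where many transcription factors are found together are known as hotspots. In the first hours of adipogenesis they form where the chromatin opens, and many of them carry co-activators such as the Mediator complex. The 9 factors fall into 3 families. The bZIP proteins grip DNA as dimers. Among them, the Jun proteins and FOSL2 make up AP-1, a factor switched on by growth signals and stress, and ATF2 and ATF7 are close relatives of each other that can pair with Jun proteins. KLF4 and KLF5 are zinc-finger proteins that bind GC-rich boxes, and both are known to act early in fat cell formation. RXR is the common partner of many nuclear receptors, and VDR, the vitamin D receptor, is one of these partners.

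The lists contributed very different parts of themselves to the 9-factor set, as follows from their lengths. The 504 intervals were 8.58% of the 5875 KLF4 sites, 8.16% of the 6175 cJun sites, 8.02% of the 6284 FOSL2 sites and 6.83% of the 7375 ATF7 sites. They were 4.999% of the 10082 JunB sites, 4.36% of the 11547 ATF2 sites, 4.27% of the 11794 VDR sites, 4.17% of the 12082 RXR sites and 2.94% of the 17120 KLF5 sites. These shares follow from the rule and are a description.

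Just outside the rule lay 603 intervals with 8 factors, and the missing factor differed sharply in frequency. cJun was the missing one at 143 of them, ATF7 at 136, KLF4 at 126 and FOSL2 at 104. ATF2 was missing at 41, VDR at 32, RXR at 13, JunB at 4 and KLF5 at 4. Put the other way round, of 647 intervals listed for the other 8 factors cJun was listed at 77.9% (exact 95% interval 74.5 to 81.0), and of 508 such intervals JunB was listed at 99.2% (98.0 to 99.8). The 2 Jun proteins, which can occupy the same AP-1 element, thus stood at opposite ends of this order. ATF7, KLF4 and FOSL2 were listed at 78.8%, 80.0% and 82.9% of the intervals that held the other 8, ATF2, VDR and RXR at 92.5%, 94.0% and 97.5%, and KLF5 at 99.2%. The factors missing most often, cJun, ATF7, KLF4 and FOSL2, had the shortest lists, from 5875 sites for KLF4 to 7375 for ATF7. KLF5, missing at 4, had the longest list, with 17120 sites. ATF2, with 11547 sites, was missing more often than JunB, with 10082. The part of list length in this order was not tested. With the cJun list left aside the set would have held 647 intervals, and with the KLF5 list left aside 508.

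The one further readout in the files is the order of their rows. The rows were not sorted by position, and all 9 lists followed a single common order, into which every interval could be placed from 1 (first row) to 34726 (last row, with 2 intervals of chromosome Y included). The place of a 9-factor interval is exact, because every other interval shares at least 1 list with it. For the remaining intervals the place is known to within 417 at worst and 5 at the median. What the order was made from is not stated in the labels or the files. It may stem from the same reads that decided the listing, so that places are described below with an interval and with no p-value, and the 9 lists are not 9 independent readings of it.

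The 9-factor intervals stood near the top of that order. Their median place was 2083.5 (quartiles 764 and 4131), against 4833 (2185 and 8571) for the 1485 intervals with 7 or 8 factors and 17615.5 over all intervals with 1 to 8 factors. The median place moved down with each factor lost, to 3980 with 8 factors, 5394.5 with 7, 6381.5 with 6, 8889.5 with 5, 11332.5 with 4, 14580.8 with 3, 18677.5 with 2 and 24079.5 with 1. The lowest 9-factor interval stood at place 16140, and the lower part of the order held none. On the percentile scale of the common order, 9-factor intervals averaged 8.78 and the others 50.6, a difference within chromosomes of -41.2 points (95% interval -42.3 to -40.0). Against intervals with 7 or 8 factors, which averaged 17.7, the difference was -8.72 points (-9.61 to -7.83). The median place was lower for 9-factor intervals than for the others on 20 of 20 chromosomes.

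The very first rows were a mixture of the most and the least shared intervals. Of the first 1000 places, which hold 2.88% of all intervals, 160 were 9-factor intervals, or 31.7% of the 504. Among the first 100 places, 18 were 9-factor intervals, 4 held 7 or 8 factors and 39 held a single factor. Chromosome 10 held 25 of these 100 places and 8 of these 18 intervals. It held 6.98% of all listed intervals and 8.93% of the 504. The share of 9-factor intervals was 18% (exact 95% interval 11.03 to 26.9) over the first 100 places, 16.5% (13.0 to 20.5) over places 101 to 500 and 15.2% (12.2 to 18.7) over places 501 to 1000. It was 8.39% over places 1001 to 2000, 5.40% over places 2001 to 5000, 1.40% over places 5001 to 10000 and 0.280% over places 10001 to 20000. Beyond place 20000 there were 0 in 14723 intervals, which by the exact 95% interval allows a share of up to 0.0251%.

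**Figure D1:**
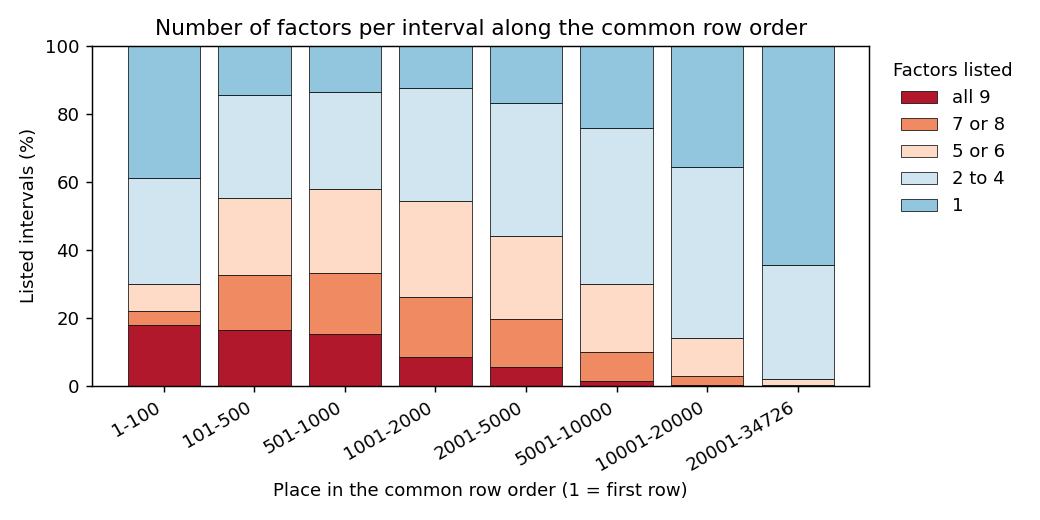
Share of listed intervals (%) with all 9, 7 or 8, 5 or 6, 2 to 4 and 1 factor along the common row order, in stretches of places from the first rows (left) to the last (right). The share with all 9 factors was 18% over the first 100 places and 0 beyond place 20000, and single-factor intervals made up 39% of the first 100 places and 64.4% of the last stretch.

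Seen from each list, the 9-factor intervals filled the upper rows to a varying degree. Their median row percentile, from 0 at the top to 100 at the bottom of the list, was 9.35 in the KLF5 list, 9.37 in ATF2, 10.35 in JunB, 11.4 in FOSL2, 11.5 in RXR, 12.0 in ATF7, 12.1 in VDR, 13.3 in cJun and 19.5 in KLF4. The other intervals of these lists had medians between 51.5 in KLF5 and 54.0 in FOSL2. Of the 504 intervals, 262 were in the first 1155 of the 11547 rows of the ATF2 list and 163 in the first 588 of the 5876 rows of the KLF4 list. In the lower part of the list, past percentile 50, stood 4 of them in ATF2 and 62 in KLF4. Since the order of rows is the same everywhere, a higher percentile in the KLF4 list reflects which other intervals that list holds, namely few from the end of the common order. It is no measure of KLF4 binding at the 504.

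**Figure D2:**
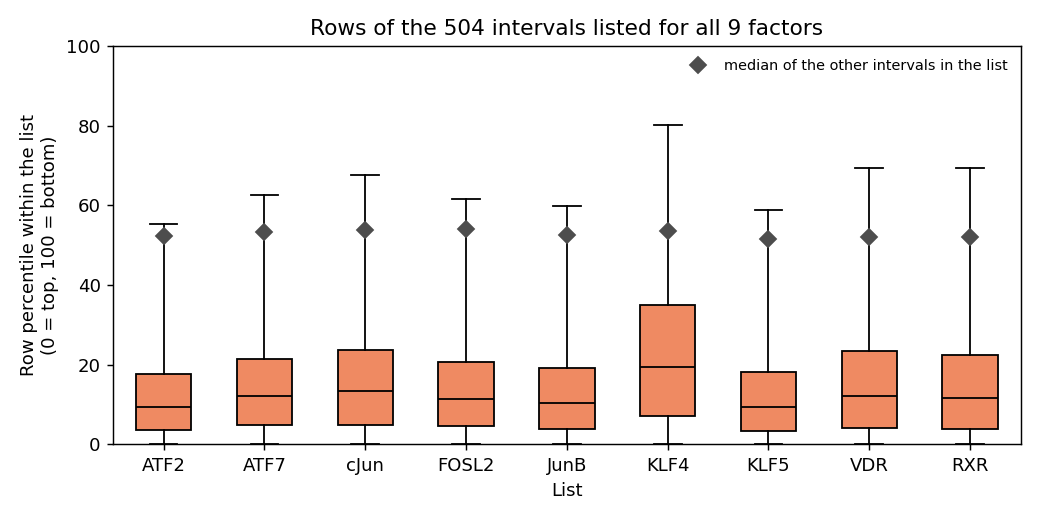
Row percentile within each list (0 = top, 100 = bottom) of the 504 intervals with all 9 factors; boxes span the quartiles, lines inside are medians, whiskers reach the first and last interval, and diamonds give the median of the list's other intervals. The medians of the 9-factor intervals lay between 9.35 (KLF5) and 19.5 (KLF4), and those of the other intervals between 51.5 and 54.0.

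The extremes show the span inside the set. The 9-factor interval at the highest place, 13, was chr2:77813626-77814025 (mm9, 1-based, as are all coordinates here). It held row 1 in the KLF4, VDR and RXR lists, row 2 in cJun, row 3 in JunB, row 4 in ATF2 and KLF5, row 6 in FOSL2 and row 8 in ATF7. The next 4 were chr10:117540490-117540889 at place 29, chr10:107480462-107480861 at place 33, chr5:66963661-66964060 at place 38 and chr10:107377382-107377781 at place 39. At the other end stood chr19:36203736-36204135 at place 16140, chr2:132439374-132439773 at 15865, chr11:112711845-112712244 at 15727, chr6:134150545-134150944 at 14319 and chr8:25683701-25684100 at 12856. The last-placed of these had a row percentile of 55.4 in the ATF2 list, a median of 62.7 over the 9 lists and 80.1 in the KLF4 list. The nearest other listed interval lay 496 to 5651 bp from the first 5, and 470 to 15966 bp from the last 5.

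The next comparison asked whether intervals with all 9 factors lay closer to other bound sites than the rest did. They did so by their midpoints, and the distance shortened with the number of factors over the whole range. The median distance to the nearest other listed interval was 2708.5 bp for 9-factor intervals (quartiles 759 and 8291), 3381 bp for those with 7 or 8 factors and 6064.5 bp for all with 1 to 8 factors. By number of factors the medians were 3212 bp with 8, 3632 bp with 7, 4173.5 bp with 6, 5292 bp with 5, 5441 bp with 4, 5517 bp with 3, 6643.5 bp with 2 and 6887.5 bp with 1. The smallest distance of a 9-factor interval was 265 bp and the largest 119351 bp. For intervals with a single factor the distance reached 3644986 bp.

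The difference was tested in a least-squares fit over all listed intervals, with chromosome terms and standard errors clustered over 20 chromosomes. On the geometric scale the distance of 9-factor intervals was 0.534 times that of the others (95% interval 0.470 to 0.607, p = 3.28e-09, two-sided, n = 20 chromosomes), and their median was lower on 20 of 20 chromosomes. Leaving out 9-factor intervals as neighbours gave 0.545 times (0.484 to 0.615), so the shorter distance also held for neighbours outside the 504. With place in the common row order as a covariate the ratio was 0.603 (0.524 to 0.695). Against intervals with 7 or 8 factors it was 0.828 (0.697 to 0.984, p = 0.0337, n = 20 chromosomes), and with place as a covariate that difference no longer passed 0.05, at 0.888 (0.762 to 1.03, p = 0.120). The error of these fits covers the spread between chromosomes in a single library per factor and not the spread between cultures or antibodies.

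Counted within 10 kb, 396 of the 504 intervals, or 78.6% (exact 95% interval 74.7 to 82.1), had another listed interval, where 60.6% of all listed intervals did. The share was 72.3% (69.9 to 74.5) with 7 or 8 factors and 60.4% (59.8 to 60.9) with 1 to 8. The fitted difference from all others was 16.3 points (95% interval 13.5 to 19.04, p = 1.46e-10, n = 20 chromosomes), and the share was higher on 20 of 20 chromosomes. Within 5 kb the share was 64.7% for 9-factor intervals, against 46.4% of all listed intervals. Within 100 kb it was 99.4%, against 98.9% with 7 or 8 factors and 96.2% with 1 to 8, and the fitted difference from all others was 2.79 points (1.74 to 3.84). Overlap with another listed interval, a distance under 400 bp, occurred at 35 of the 504, or 6.94% (4.88 to 9.53), against 4.98% of all intervals. The interval of this share includes 4.98%, so no excess of overlap is shown. Overlap occurred at 5.25% of intervals with 7 or 8 factors and 5.35% of those with 1.

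For 9-factor intervals, and for those with 7 or 8 factors, the share with a neighbour within 10 kb was highest over the first 1000 places. Further down, the share of 9-factor intervals did not fall steadily. Among the first 1000 places, 85.6% of 9-factor intervals (79.2 to 90.7, 160 intervals) had a neighbour within 10 kb, against 84.3% with 7 or 8 factors (77.7 to 89.6) and 65.9% with 1 to 8 factors (62.6 to 69.1). Over places 1001 to 5000 the shares were 74.4%, 72.3% and 65.9%, and over places 5001 to 20000 they were 77.6%, 70.4% and 61.0%. In each stretch the interval of the 9-factor share overlapped that of the intervals with 7 or 8 factors. Against those intervals, the difference of 5.25 points (1.47 to 9.03, p = 0.00903, n = 20 chromosomes) was 3.36 points with place as a covariate (-0.377 to 7.09, p = 0.0753).

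**Figure D3:**
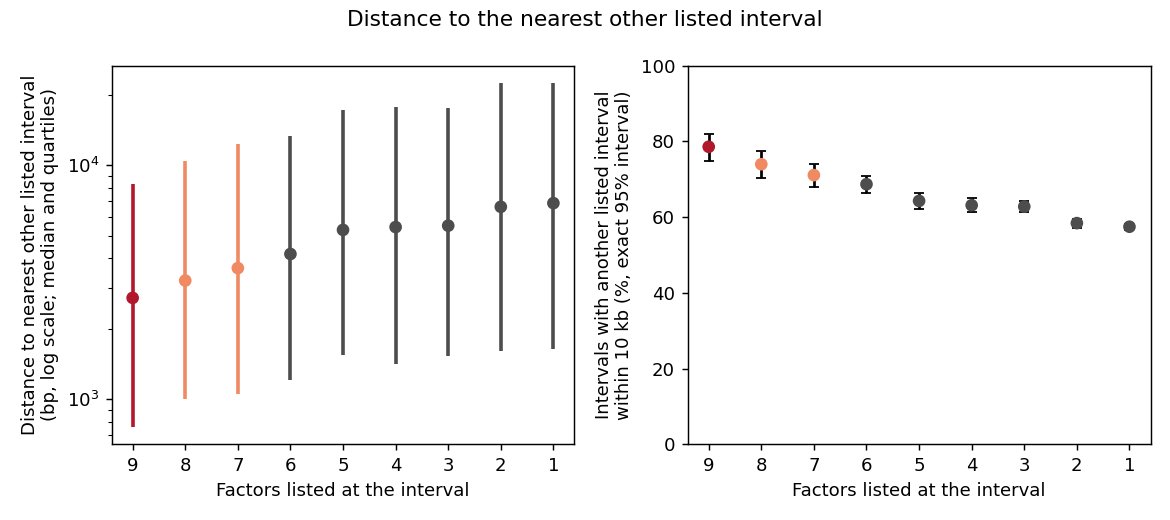
Left, distance in bp (log scale) to the nearest other listed interval by the number of factors listed, points for medians and lines for quartiles; right, share of intervals (%) with another listed interval within 10 kb, with exact 95% intervals. Medians were 2708.5 bp with 9 factors and 6887.5 bp with 1, and shares were 78.6% and 57.5%.

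A minority of the 9-factor intervals stood alone: 108 of the 504, or 21.4%, had no listed interval within 10 kb, against 27.7% of those with 7 or 8 factors and 39.6% of those with 1 to 8. The most isolated were chr12:96585916-96586315, with the nearest listed interval at 119351 bp, chr12:55470203-55470602 at 108632 bp, chr19:56096792-56097191 at 88124 bp, chr10:97971065-97971464 at 85201 bp and chr5:67785162-67785561 at 82024 bp. Isolation did not mean a place far down: the median place was 2426 for the 108 and 2002 for the 396 with a neighbour, with overlapping quartiles (1127.75 to 4256.5, and 705.75 to 4117.75).

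Which factors were listed at the neighbours was the next question. Neighbours within 10 kb that were not 9-factor intervals themselves carried a mean of 2.93 factors around 391 of the 504, and of 2.57 factors around the other intervals (difference 0.334, 95% interval 0.108 to 0.560, p = 0.00601, n = 20 chromosomes). Around intervals with 7 or 8 factors the mean was 2.79, and the difference from these did not pass 0.05 (0.119, -0.0415 to 0.279). The difference from all others also did not pass for neighbours within 1 kb (0.388, -0.154 to 0.930). With place in the common row order as a covariate, the difference from all others within 10 kb was 0.256 (0.0474 to 0.464). With overlapping neighbours left out, and without that covariate, the difference was 0.338 (0.121 to 0.554). Of the 396 nearest neighbours within 10 kb of a 9-factor interval, 126 (31.8%, exact 95% interval 27.3 to 36.7) had a single factor, 167 (42.2%) had 2 to 4, 83 (21.0%) had 5 to 8 and 20 (5.05%) had all 9. Around the other intervals the shares were 40.6%, 40.3%, 17.2% and 1.95%.

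By factor, the receptors, the KLF proteins and JunB were more frequent at neighbours of 9-factor intervals than at neighbours of the others. In the fits within chromosomes, adjusted p ran from 0.00831 for RXR to 0.0326 for JunB over 9 factors (n = 20 chromosomes). The neighbours were read from the same 9 lists by which the intervals were chosen. Neighbours that overlapped an interval, and so shared sequence with it, were counted too. The part of either in these p-values was not tested. RXR was listed at a mean of 45.3% of neighbours around 9-factor intervals and 36.3% around the others, a difference of 9.02 points (95% interval 4.20 to 13.8). VDR had 40.1% and 33.8% (5.88 points, 2.03 to 9.72). KLF5 had 57.9% and 52.4% (6.04 points, 1.41 to 10.7), and KLF4 had 23.3% and 17.5% (5.49 points, 1.52 to 9.47). JunB, alone among the 5 bZIP proteins to pass, had 32.1% and 27.6% (4.48 points, 0.854 to 8.11).

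The differences are fitted within chromosomes, while the shares are plain means over intervals. The remaining bZIP proteins gave fitted differences whose intervals included 0. ATF2 was listed at 34.9% of neighbours of 9-factor intervals and 33.5% of neighbours of the others (0.768 points, -4.38 to 5.92), ATF7 at 23.1% and 20.9% (1.32 points, -4.38 to 7.01), cJun at 17.8% and 16.6% (0.859 points, -3.25 to 4.97) and FOSL2 at 18.9% and 18.5%. For FOSL2 the fitted difference, -0.436 points (-5.66 to 4.79), had the opposite sign to that of the plain shares, so no direction is given for it. The intervals are wide enough to hold a difference of the size seen for JunB, so these factors are not shown to differ from it. Against neighbours of intervals with 7 or 8 factors, no factor passed (lowest adjusted p = 0.507 over 9 factors, n = 20 chromosomes), and 0 of 9 had an unadjusted p under 0.05.

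**Figure D4:**
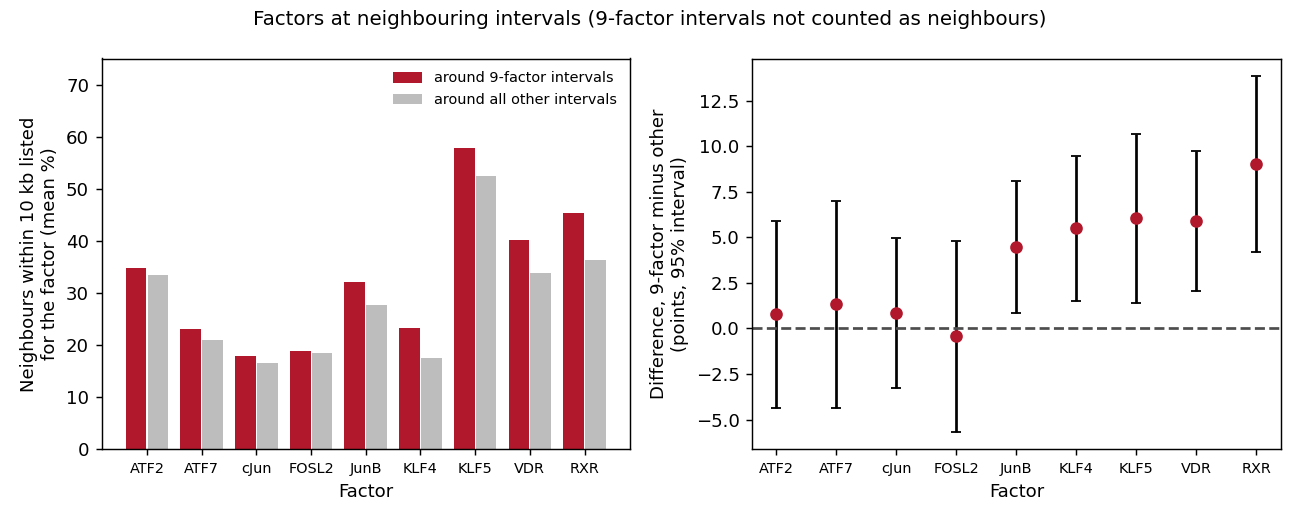
Left, mean share (%) of neighbours within 10 kb listed for each factor, around 9-factor intervals (left bars) and around all other intervals (right bars), with 9-factor intervals not counted as neighbours; right, the fitted difference in points with its 95% interval, clustered over chromosomes. RXR had the largest difference, 9.02 points, and the intervals for ATF2, ATF7, cJun and FOSL2 included 0.

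Single-factor KLF5 and ATF2 intervals were the most frequent nearest neighbours, at 41 and 28 of the 396 (10.35% and 7.07%), against 12.2% and 8.76% around the other intervals. In 20 cases (5.05%, exact 95% interval 3.11 to 7.69) the nearest neighbour was another 9-factor interval, against 1.95% around the others. KLF5 with RXR and nothing else followed with 17 cases (4.29%, 2.52 to 6.78, against 1.96%), and KLF5 with VDR and RXR also had 17 (3.38% around the others). These combinations were picked by their frequency, and no test was made of them. Of the 35 intervals that overlapped a 9-factor interval, 2 were 9-factor intervals themselves. KLF5 was listed at 24 of the remaining 33 (72.7%, exact 95% interval 54.5 to 86.7), against 46.6% of the intervals that overlapped one of the others and 49.3% of all listed intervals. RXR was listed at 15 (45.5%, 28.1 to 63.6, against 27.7% and 34.8%) and ATF2 at 13 (39.4%, 22.9 to 57.9, against 38.7% and 33.3%). FOSL2 was listed at 2 (6.06%, 0.743 to 20.2, against 20.02% and 18.1%). JunB was listed at 4 (12.1%, 3.40 to 28.2, against 21.3% and 29.0%), the reverse of its direction within 10 kb. VDR was listed at 11 (33.3%, against 25.1% and 34.0%) and KLF4 at 8 (24.2%, against 17.0% and 16.9%). ATF7 was listed at 6 (18.2%, against 23.7% and 21.2%) and cJun at 3 (9.09%, against 12.8% and 17.8%). With 33 intervals these shares are imprecise, and no test was made.

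Spacing among the 504 themselves is described without a reference for sets of this size, so it is not called wide or narrow. The median distance from a 9-factor interval to the nearest other one was 626723.5 bp, with quartiles of 78323.5 and 2173728 bp. Another 9-factor interval lay within 10 kb of 42 of them (8.33%), within 100 kb of 141 (28.0%) and within 1000 kb of 293 (58.1%). As a share of all neighbours, 9-factor intervals were 4.63% (48 of 1037) of the neighbours within 10 kb of a 9-factor interval. They were 3.49% of the neighbours of intervals with 7 or 8 factors and 2.12% of the neighbours of intervals with 1 to 8. Without chromosome 10 these shares were 3.67%, 2.98% and 2.08%. Each pair of 9-factor intervals enters the first share from both sides, and no test was made.

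Joining 9-factor intervals within 10 kb gave 20 runs, 18 with 2 members and 2 with 3. Both runs of 3 lay on chromosome 10. The shorter, chr10:117558129-117560309, spanned 2181 bp, with members at places 385, 1016 and 7662 and no other listed interval between them. The longer, chr10:117421879-117431250, spanned 9372 bp and had members at places 264, 500 and 4172. The closest pair, chr17:12287719-12288118 and chr17:12288084-12288483, overlapped, with midpoints 365 bp apart. Its members held places 430 and 8039, or row percentiles of 3.66 and 55.9 in the KLF4 list. Adjacent 9-factor intervals could therefore stand far apart in the row order.

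Along the genome, the share of listed intervals with all 9 factors ranged from 0.448% on chromosome X (3 of 670, exact 95% interval 0.0924 to 1.30) to 2.70% on chromosome 19 (42 of 1558, 1.95 to 3.63). Chromosome 6 had the largest number, 59 of 2771 (2.13%, 1.62 to 2.74), followed by chromosome 5 with 48 of 2286 (2.10%, 1.55 to 2.77). These 3 chromosomes, 19, 6 and 5, had intervals above the share over all chromosomes, and 4 had intervals below it: X, 7 with 0.509% (0.220 to 1.00), 11 with 0.800% (0.449 to 1.32) and 3 with 0.8798% (0.493 to 1.45). The intervals cover counting error only and are not adjusted over 20 chromosomes. Chromosome 19 thus held 8.33% of the 9-factor intervals and 4.49% of all listed intervals. Among intervals with 5 or more factors, 13.0% on chromosome 19 (9.50 to 17.1) and 8.96% over all chromosomes had all 9. Chromosome 10, at 12.6% (9.34 to 16.5), and chromosome 5, at 12.3% (9.22 to 16.0), also had intervals above 8.96% on this base. That of chromosome 6, at 11.1% (8.57 to 14.1), included it. Chromosomes 3, at 5.47% (3.10 to 8.87), and 7, at 4.35% (1.90 to 8.39), had intervals below it.

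**Figure D5:**
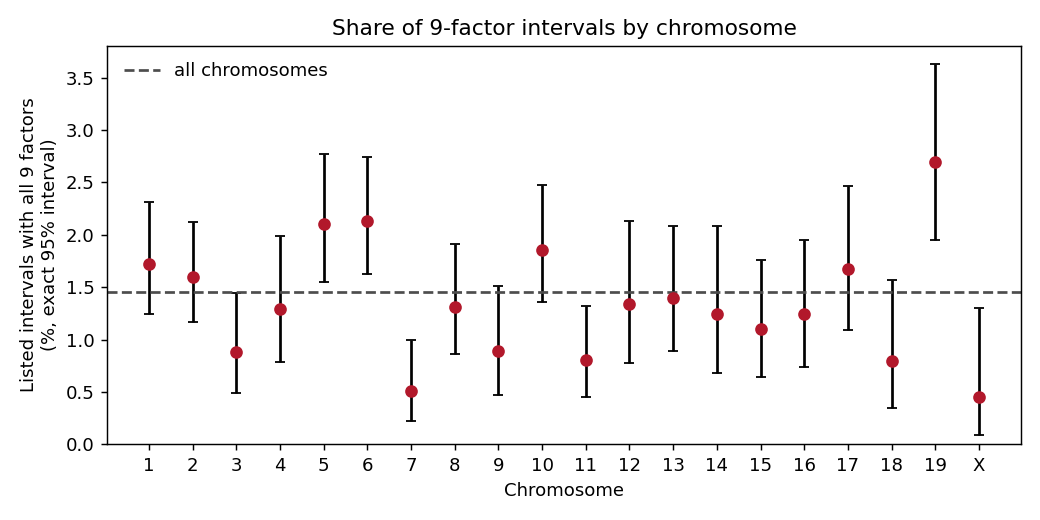
Share of the listed intervals of each chromosome that had all 9 factors (%), with exact 95% intervals; the dashed line is the share over all chromosomes, 1.45%. Chromosome 19 was highest at 2.70% and chromosome X lowest at 0.448%.

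Chromosome 10 held 45 of the 504, and 32 of these fell in 3 windows of 1 Mb where listed intervals of every kind were dense, with 375, 288 and 204 intervals against at most 93 in any other window. The windows held 11, 13 and 8 of the 9-factor intervals. In all, 3.69% of their 867 intervals had all 9 factors (exact 95% interval 2.54 to 5.17), and the windows made up 2.50% of all intervals and 6.35% of the 504. The 32 stood at a median place of 499.5, the 13 elsewhere on chromosome 10 at 3359 and the 459 on other chromosomes at 2174. Their median distance to the nearest listed interval was 863.5 bp, and that of the other 835 intervals in the same windows was 849 bp. Short distances there follow from how the windows were chosen. The other 835 intervals had a median place of 12650. The part of these windows in the row order was not tested. Without chromosome 10 the fitted difference in place from all others was -41.1 points, against -41.2 with it. The distance ratio was 0.529, against 0.534. The difference in the number of factors at neighbours within 10 kb was 0.255 (95% interval 0.0667 to 0.443), against 0.334. These are averages over sets with most members on other chromosomes, so they do not measure the part of the windows.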

How the data were processed

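The data were ChIP-seq site lists for 9 transcription factors in 3T3-L1 cells 4 h after induction. The other 21 of 30 labelled samples were not analysed here. Each list deposited by the authors gives chromosome, start and end of 400 bp intervals in mm9; FastQC, Bowtie and HOMER are named in the submitters' processing notes. Their roles, the peak threshold and the basis of the row order are not stated there or in the files. Depth is unknown. The 9-factor intervals, lists and tests were chosen with earlier results of these data known.

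The common row order was built from all 9 lists. An interval's place is the midpoint of the lowest and highest place it can take. Distances are between midpoints. Members were compared with other intervals by least squares with chromosome terms and chromosome-clustered errors. The t distribution had 19 degrees of freedom with all 20 chromosomes and fewer without chromosome 10. The 9 factors at neighbours were adjusted by the Benjamini-Hochberg method. Shares carry exact Clopper-Pearson 95% intervals, for counting error only. Named intervals were members in runs of 3 or more, the closest pair, the 5 most isolated, and the first and last 5 in the row order, none on chromosome 18. Dense windows hold at least 200 listed intervals and were defined after the data were seen. The reference held no genome of this build, so sequence and genes at the intervals were not analysed here. The calculations were tested on simulated data. Software was pandas 2.3.3, scipy 1.17.1 and numpy 2.4.6 under Python 3.11.15.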

Additional observations from a re-analysis of the deposited data

How the results depend on the processing

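Of 53 alternative values, 48 kept their direction and their side of the threshold or, where no test was made, were counted as unchanged. That count includes the fits of row position and recounts of the set, where even 647 against 504 was counted as unchanged. The recounts reuse the values of the rule, and leaving out a list can only enlarge the set. Row position may come from the same reads as the listing. Neither group is therefore support for the set. Values with place in the row order as a covariate, and those on intervals with 7 or 8 factors without chromosome 10, were chosen after seeing the data. Against intervals with 7 or 8 factors, and with place as a covariate, the log10 distance differed by -0.0517 (p = 0.120, n = 20 chromosomes) and the share with a neighbour within 10 kb by 3.36 points (p = 0.0753), both short of the threshold. The number of factors at neighbours differed by 0.119 (p = 0.137, n = 20 chromosomes) against intervals with 7 or 8 factors and by 0.388 (p = 0.150) within 1 kb, where only 152 of the 504 entered. The share of 9-factor intervals among their own neighbours was 3.31% within 100 kb, against 2.21% around the others. The cause of these changes was not tested. Joining overlapping intervals into loci gave 511 loci with all 9 factors, 503 of them with a 9-factor interval. Leaving out 1 list gave 508 (JunB or KLF5) to 647 (cJun). With unknown depth, an interval missing from a list is not shown to be unbound. No paired analysis was possible because each factor had 1 library and the labels give these no replicate numbers.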

Other observations

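Places ahead of the 9-factor intervals were held by intervals with 1 to 5 factors. The first place in the common row order was chr9:3035647-3036046, listed for ATF7 alone, and the second was chr10:117158496-117158895, listed for ATF2, ATF7, cJun, FOSL2 and KLF5. Overlapping intervals on chromosome 19, chr19:44471176-44471575 and chr19:44471552-44471951, stood at places of about 6 and 7 and were listed for FOSL2 and JunB. On chromosome 17, chr17:39982241-39982640 stood at a place of about 11 and was listed for ATF2, ATF7 and FOSL2.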
